A study of Mus musculus with 7 samples.

Results

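Cell cycle genes were followed in whole liver of mice with high or low bile acids. The set held 48 genes, chosen by symbol from a list of known cell cycle genes and found among the 37620 gene rows of the deposited count table. The list was chosen with earlier results of these data known. By role, 9 of them act in G1, 14 in S phase and 25 in G2 and mitosis. The H-TBA group (high total bile acids) had 4 libraries and the L-TBA group (low total bile acids) had 3, here called H-TBA 1 to 4 and L-TBA 1 to 3. All were homogenised livers of C57BL/6 mice given Western diet over 30 weeks, so the strain, the tissue and the diet were shared by both groups. That every library was its own animal is not stated in the labels, and a p-value here therefore measures only the spread between these libraries, which may be technical.

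In the cell cycle, D-type cyclins with Cdk4 or Cdk6 start the phosphorylation of the retinoblastoma protein in G1, which releases E2F factors. E2F factors drive genes of DNA replication, whose products load the MCM helicase on origins, copy the genome and supply nucleotides. Later, cyclin B with Cdk1, the Aurora and Polo kinases, spindle motors and the anaphase-promoting complex carry the cell through mitosis. Many late genes are held silent in resting cells by the DREAM complex, which binds promoter elements called CHR, and their activation draws on CCAAT boxes, the binding sites of NF-Y. Most cells of an adult liver rest outside the cycle, and hepatocytes, bile duct cells and other liver cells can re-enter it after injury.

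The libraries held 9996990 to 12152613 counts. H-TBA 1 stood apart from its group: on the first principal component it lay at -10.7, the other H-TBA libraries between -43.5 and -34.6 and the L-TBA libraries between 36.8 and 45.2. Among the G2 and mitotic members, H-TBA 1 was the lowest H-TBA library in 20 of 25 genes, and L-TBA 3 was the highest L-TBA library in 19 of 25. Member calls that turn on these 2 libraries are given with and without them. For members whose direction turned with 1 library left out, the range of the log2 fold change is given at the end. All 6 hepatocyte markers were tested, and they summed to 51861 to 58293 CPM (counts scaled to the size of the library) in H-TBA and 54467 to 63669 CPM in L-TBA libraries. Of these 1 rose, Cps1 (log2 fold change 1.13, adjusted p = 0.00103), and 1 fell, Ttr (log2 fold change -0.45, adjusted p = 0.0113), and Alb (albumin) was at 35078 to 39611 CPM in H-TBA and 37838 to 45911 CPM in L-TBA libraries.

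**Figure D1:**
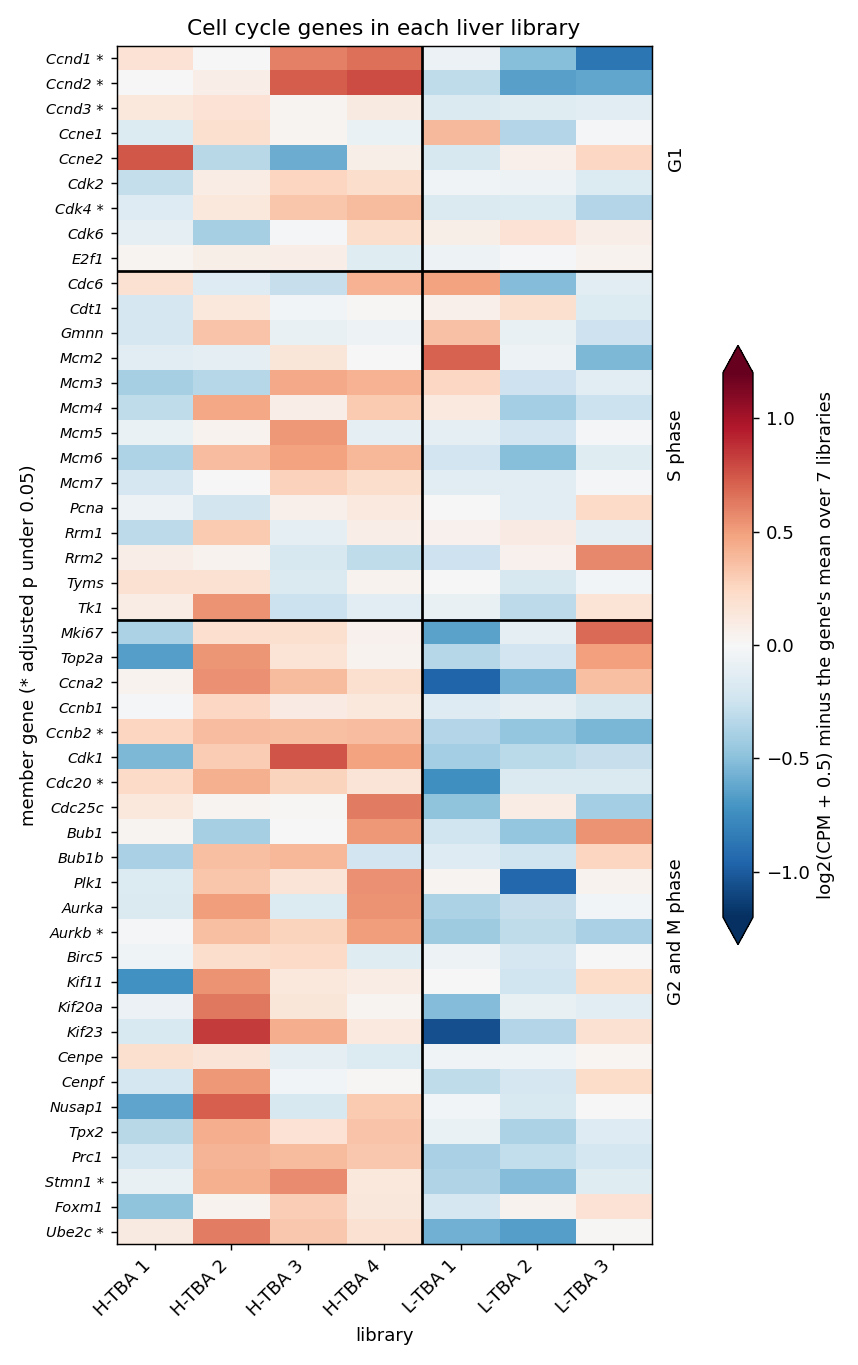
Level of each of the 48 genes (rows) in each of the 7 libraries (columns, H-TBA left of the vertical line and L-TBA right of it), as log2(CPM + 0.5) minus the gene's mean over the 7 libraries; horizontal lines part the G1, S-phase and G2 and mitotic genes, and asterisks mark an adjusted p under 0.05. Ccnb2 and Cdc20 are red in all H-TBA and blue in all L-TBA libraries, while most S-phase rows mix both colours within a group.

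Transcripts of the D-type cyclins, of Cdk4 and of 5 mitotic genes were higher in H-TBA livers, and no S-phase member passed the test. Of the 48 members, 45 had enough counts to be tested, and 9 of these (20.0%) rose in H-TBA at an adjusted p under 0.05 (edgeR's quasi-likelihood test, Benjamini-Hochberg over 15249 genes). These were Ccnd1, Ccnd2, Ccnd3 and Cdk4 of G1 and Ccnb2, Stmn1, Cdc20, Aurkb and Ube2c of mitosis. Of all genes tested, 13.1% rose, 10.7% fell and 23.9% changed in either direction. None of the 45 members fell. At an unadjusted p under 0.05 edgeR gave 12 members higher and 0 lower, while 5604 of the 15249 genes met it in either direction. At an adjusted p under 0.05 DESeq2 called 8 members higher and 0 lower, beside 1903 and 1630 of all genes. With limma-voom 13 members were called higher and 0 lower, beside 2346 and 2077 of all genes.

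The median log2 fold change of the 45 members was 0.20, over a range from -0.27 for Rrm2 (-0.0019 without L-TBA 3) to 0.99 for Ccnd2, against a median of 0.00 for all genes tested. The median of the members ran from 0.157 without L-TBA 2 to 0.301 without L-TBA 3. The fold change was above 0 in 36 members and below 0 in 9. Scaling by library totals in place of TMM raised the median of all genes to 0.16 and that of the members to 0.36, turned the calls over all genes to 3117 higher and 832 lower, against 2003 and 1635, and brought Ccne1, Cdt1, Gmnn, Pcna, Rrm1 and Mki67 above 0. In 12 members every H-TBA library lay above every L-TBA library, an order seen in 17.2% of all genes tested, and in 0 members did every H-TBA library lie below, an order seen in 16.3% of all genes. The number of members that rose was 13 without H-TBA 1 and 7 without L-TBA 3. It was 3 without H-TBA 2, 4 without H-TBA 3, 4 without H-TBA 4, 3 without L-TBA 1 and 4 without L-TBA 2. Between 45 and 47 members were tested in these fits. Of all genes, 2429 of 15184 rose without H-TBA 1 and 1511 of 15601 without L-TBA 3. The number was 1580 of 15098 without H-TBA 2, 1566 of 15075 without H-TBA 3 and 1504 of 15005 without H-TBA 4. It was 1539 of 15527 without L-TBA 1 and 1470 of 15521 without L-TBA 2. Without H-TBA 2, H-TBA 3, H-TBA 4, L-TBA 1 or L-TBA 2, the share of members that rose was below that of all genes. With all libraries, Cdc6, Cdc25c and Bub1 were too low to be tested. Of the tested members, 41 reached the filter's minimum in all 7 libraries. Plk1, Aurkb and Kif23 reached it in fewer than 3 L-TBA libraries, so L-TBA alone would not have brought these 3 into the test. Of the 3, Aurkb is counted among the 9 that rose, and its call was lost with no filter (adjusted p = 0.0654 by edgeR).

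**Figure D2:**
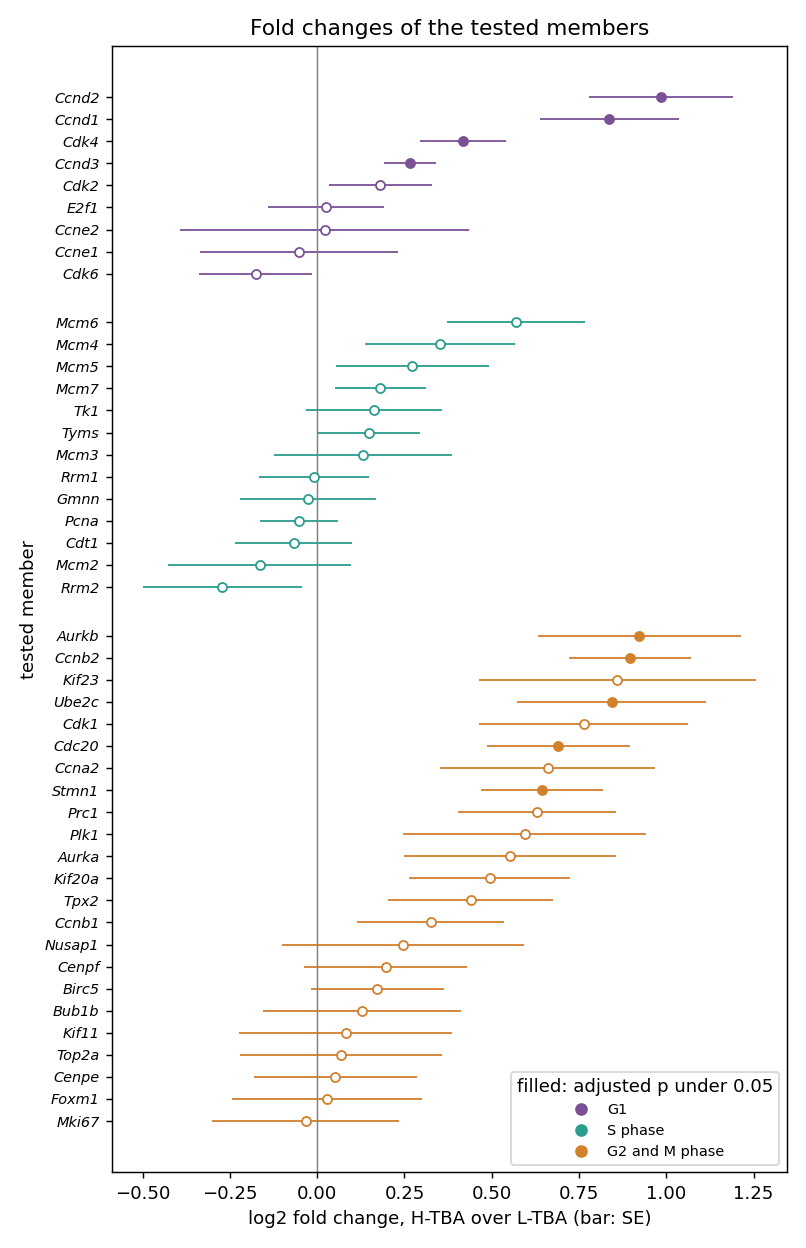
Log2 fold change, H-TBA over L-TBA, of the 45 tested genes (points) with its standard error (bars), grouped as G1, S phase and G2 and M phase; filled points passed an adjusted p of 0.05. The filled points, 4 in G1, 0 in S phase and 5 in G2 and M phase, all lie right of 0.

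Promoter sequences are shown for 8 members, because the 3 classes differed in the elements that their promoters held. In RefSeq windows of 300 bases on GRCm38.p6 (250 before the transcript start and 50 after it), 36 of the 48 members had an entry, in 39 windows. Members with no entry were Ccnd1, Ccnd2, Ccne2, Gmnn, Mcm4, Ccna2, Cdc25c, Aurkb, Kif20a, Tpx2, Stmn1 and Foxm1. The letters searched, on both strands, were TTTGAA and TTTAAA for the CHR, CCAAT for the CCAAT box, and TTCCCGC and TTGGCGC for an E2F core. The complement of CCAAT can overlap TTGGCGC, which happened in 2 member windows. Of the windows of G2 and mitotic members, 16 of 19 (84.2%) held both a CHR and a CCAAT, against 3 of 13 (23.1%) for S-phase members, 0 of 7 for G1 members and 10.7% of all 32851 windows in the table. An E2F core was present in 8 of 13 windows (61.5%) of S-phase members, in 3 of 19 (15.8%) of G2 and mitotic members, in 1 of 7 (14.3%) of G1 members and in 6.81% of all windows. These matches are a description of letters and carry no test.

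**Figure D3:**
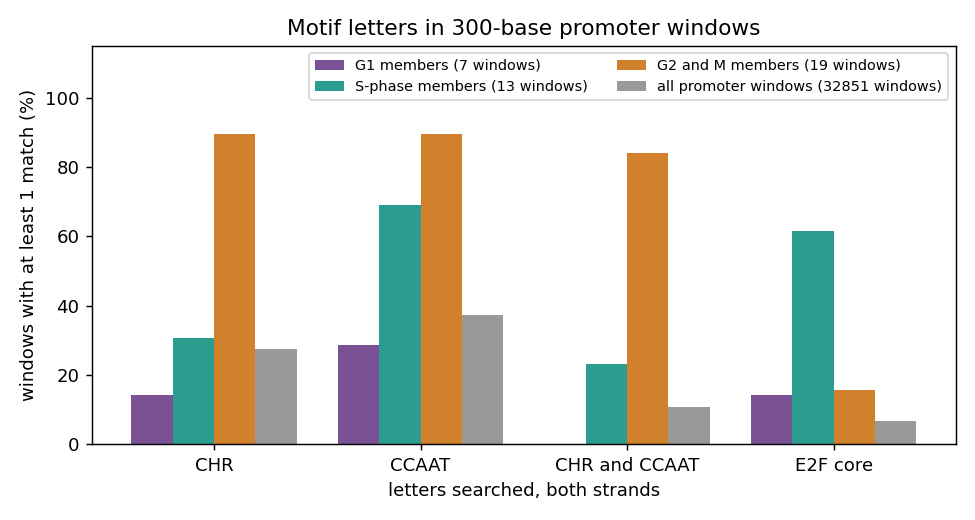
Share of 300-base promoter windows (y axis, percent) that hold at least 1 match to the CHR, CCAAT, CHR with CCAAT, or E2F core letters (x axis), for G1, S-phase and G2 and mitotic members and for all windows in the table (colours). The CHR with CCAAT bar reaches 84.2% for G2 and mitotic members and 10.7% for all windows.

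The stretches below run 5′ to 3′ on the gene's own strand, from 150 bases before the start to 10 bases after it, with matches in capitals. Ccnb2, Cdc20 and Ube2c are shown as mitotic members that rose, Mki67, Top2a and Cdk1 as mitotic members that did not pass the test, Mcm6 as a replication gene with E2F cores and Cdk4 as a G1 gene that rose with no match. The coordinates are of GRCm38.p6.
Ccnb2, chr9:70421545-70421704, minus strand: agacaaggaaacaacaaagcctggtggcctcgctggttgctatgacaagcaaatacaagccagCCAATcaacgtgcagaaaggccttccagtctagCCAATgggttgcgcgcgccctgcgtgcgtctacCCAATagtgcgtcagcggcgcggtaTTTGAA
Cdc20, chr4:118437334-118437493, minus strand: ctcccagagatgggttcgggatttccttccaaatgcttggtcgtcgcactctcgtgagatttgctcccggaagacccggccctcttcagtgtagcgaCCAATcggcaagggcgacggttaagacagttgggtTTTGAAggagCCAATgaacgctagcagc
Ube2c, chr2:164769779-164769938, plus strand: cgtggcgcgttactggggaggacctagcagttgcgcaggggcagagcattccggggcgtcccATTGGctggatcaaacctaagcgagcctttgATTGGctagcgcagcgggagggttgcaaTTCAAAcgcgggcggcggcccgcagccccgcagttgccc
Mki67, chr7:135716370-135716529, minus strand: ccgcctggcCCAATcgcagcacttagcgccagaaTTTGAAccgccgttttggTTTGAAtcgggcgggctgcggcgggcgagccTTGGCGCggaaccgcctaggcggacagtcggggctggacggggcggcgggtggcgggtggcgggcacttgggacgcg
Top2a, chr11:99024180-99024339, minus strand: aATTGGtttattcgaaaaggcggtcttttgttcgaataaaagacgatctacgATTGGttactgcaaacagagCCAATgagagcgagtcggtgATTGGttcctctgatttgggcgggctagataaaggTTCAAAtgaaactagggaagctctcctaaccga
Cdk1, chr10:69352903-69353062, minus strand: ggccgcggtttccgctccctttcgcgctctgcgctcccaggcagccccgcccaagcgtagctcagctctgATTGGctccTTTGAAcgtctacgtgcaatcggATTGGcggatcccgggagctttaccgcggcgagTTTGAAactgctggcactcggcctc
Mcm6, chr1:128359696-128359855, minus strand: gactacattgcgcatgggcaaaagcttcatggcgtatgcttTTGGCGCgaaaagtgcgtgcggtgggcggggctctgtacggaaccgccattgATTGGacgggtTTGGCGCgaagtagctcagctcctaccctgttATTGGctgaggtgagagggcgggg
Cdk4, chr10:127063385-127063544, plus strand: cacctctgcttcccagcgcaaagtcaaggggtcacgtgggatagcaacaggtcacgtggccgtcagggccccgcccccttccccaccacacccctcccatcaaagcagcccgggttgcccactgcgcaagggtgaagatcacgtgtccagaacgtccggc

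In the Ccnb2 stretch, CCAAT began 87, 54 and 21 bases before the start, and a CHR began at base 5 of the transcript. In that of Cdc20, CCAAT began 53 and 8 bases and the CHR 18 bases before the start. Ube2c had CCAAT at 88 and 57 bases and a CHR at 29 bases before the start. The 3 mitotic members shown that did not pass held a CHR with a CCAAT too, whereas the window of Nusap1 held neither, that of Birc5 no CCAAT and that of Bub1 no CHR. A CHR lay 116 and 98 bases before the Mki67 start, 23 bases before that of Top2a, and 71 and 15 bases before that of Cdk1. Mcm6 had E2F cores at 109 and 46 bases before its start, each followed by a CCAAT, at 57 and 14 bases.

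Among the G1 members, the cyclins D1, D2 and D3 and their kinase Cdk4 rose in H-TBA livers, while the cyclins E, Cdk2, Cdk6 and E2f1 did not pass the test. Of 9 members, all tested, 4 rose (44.4%), beside 13.1% of all genes, and the median log2 fold change of the 9 was 0.18. The number that rose was 4 without H-TBA 1, 3 without H-TBA 3 and 2 without any other library. Ccnd1, cyclin D1, the partner of Cdk4 that growth signals induce, had 134, 119, 181 and 188 CPM in H-TBA 1 to 4, against 113, 83.1 and 64.7 CPM in L-TBA 1 to 3. Its log2 fold change was 0.84 ± 0.20 (SE; adjusted p = 0.0109). Ccnd2, cyclin D2, had 21.5, 22.8, 36.1 and 37.5 CPM in H-TBA and 17.4, 13.6 and 13.8 CPM in L-TBA libraries, with a log2 fold change of 0.99 ± 0.21 (adjusted p = 0.00563). For both genes H-TBA 3 and 4 were the highest libraries, H-TBA 1 and 2 lay between them and L-TBA, and the groups did not overlap. Both calls held with any 1 library left out, with an adjusted p of 0.00560 to 0.0425 for Ccnd1 and 0.000819 to 0.0270 for Ccnd2.

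Ccnd3, cyclin D3, differed less: it had 43.9, 45.4, 41.2 and 43.4 CPM in H-TBA and 35.5, 36.3 and 36.7 CPM in L-TBA libraries, and was higher in H-TBA by 0.27 ± 0.07 on the log2 scale (adjusted p = 0.0235). The groups were narrow and did not overlap. Its call was lost without H-TBA 2, H-TBA 4, L-TBA 1, L-TBA 2 or L-TBA 3, at an adjusted p of 0.0505 to 0.0915. Cdk4, the kinase of the D cyclins, had 45.7, 55.7, 64.2 and 66.3 CPM in H-TBA and 44.9, 45.4 and 39.9 CPM in L-TBA libraries, and was higher in H-TBA by 0.42 ± 0.12 on the log2 scale (adjusted p = 0.0297). The lowest H-TBA library, H-TBA 1, lay just above L-TBA 1 and 2, and the other 3 stood well above all L-TBA libraries. Without H-TBA 1 the log2 fold change was 0.52 (adjusted p = 0.00167). The call was lost without any other library, at an adjusted p of 0.0535 to 0.111.

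The values of the remaining G1 members overlapped between the groups. Ccne1, a cyclin E that activates Cdk2 before S phase, had 1.49, 2.05, 1.79 and 1.62 CPM in H-TBA and 2.42, 1.26 and 1.70 CPM in L-TBA libraries (log2 fold change -0.05 ± 0.28, adjusted p = 0.920), and L-TBA 1 was its highest library. E2f1, the transcription factor that the retinoblastoma protein holds back, had 4.48, 4.59, 4.64 and 3.88 CPM in H-TBA and 4.15, 4.31 and 4.51 CPM in L-TBA libraries (log2 fold change 0.03 ± 0.17, adjusted p = 0.932). Its 7 libraries lay close together and the groups overlapped. The log2 fold changes of Ccne2, Cdk2 and Cdk6 were 0.02 ± 0.41, 0.18 ± 0.15 and -0.18 ± 0.16, with an adjusted p of 0.976, 0.413 and 0.473.

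**Figure D4:**
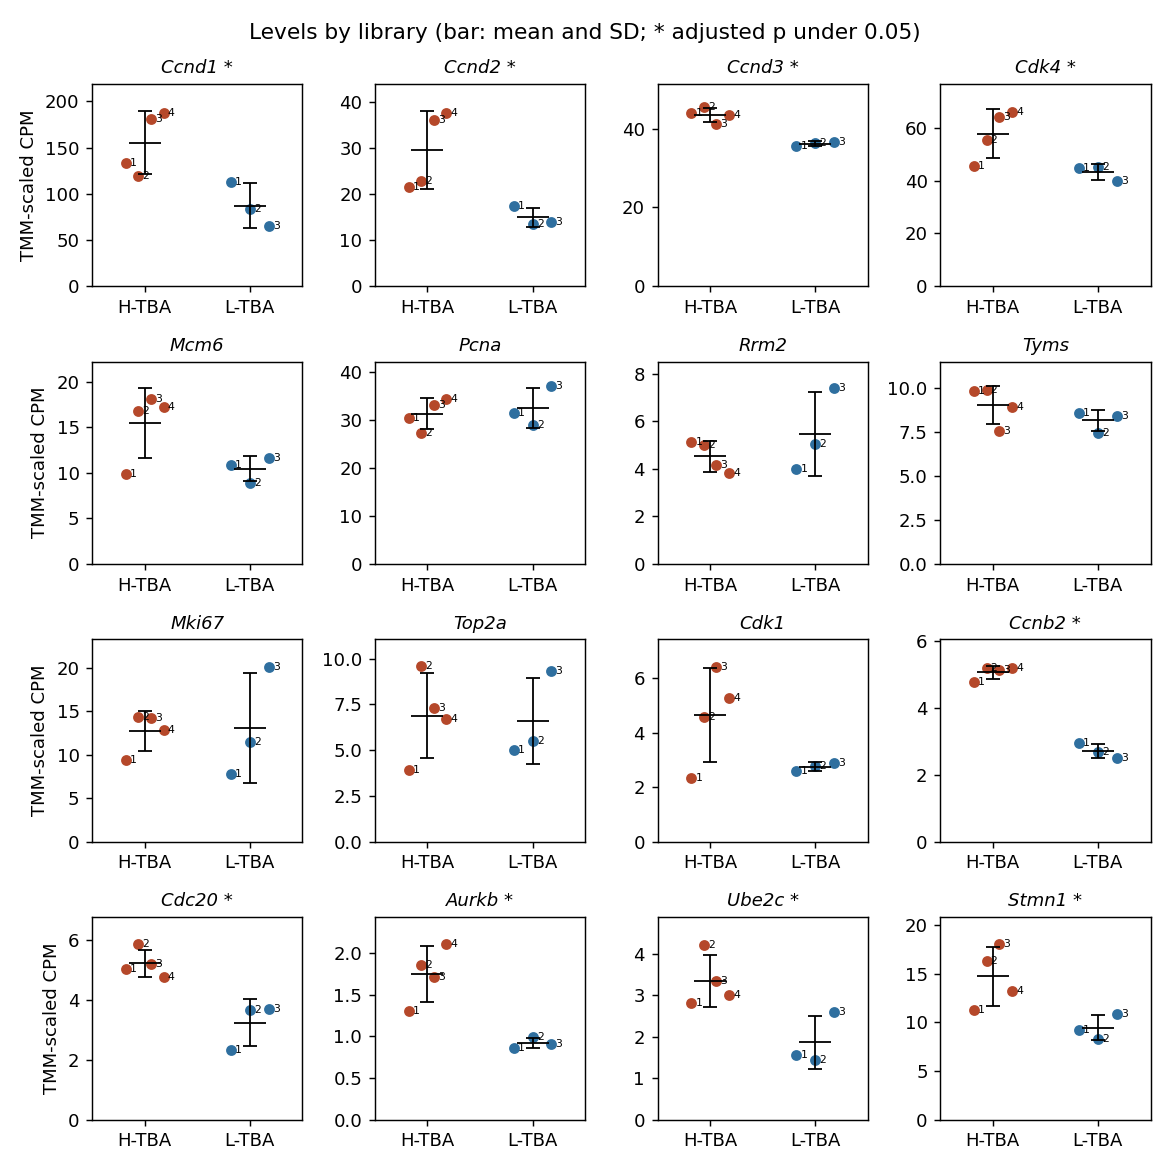
TMM-scaled CPM (y axis, from 0) of 16 genes in the H-TBA (left, red) and L-TBA (right, blue) libraries; each point is a library with its number beside it, bars give the mean and SD (n = 4 and n = 3), and asterisks mark an adjusted p under 0.05. Points of the groups do not overlap for Ccnd1, Ccnd2, Ccnd3, Cdk4, Ccnb2, Cdc20, Aurkb, Ube2c and Stmn1, and they overlap for Mcm6, Pcna, Rrm2, Tyms, Mki67, Top2a and Cdk1.

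No S-phase member passed the test. Of 14 genes that license origins, encircle DNA at the fork or supply nucleotides, 13 were tested, and 0 rose and 0 fell by edgeR, with 1 at an unadjusted p under 0.05 (Mcm6) and 1 called by DESeq2 and by limma-voom (in each, Mcm6). Their median log2 fold change was 0.13, with 7 above 0 and 6 below 0. This median was 0.0017 without H-TBA 4, 0.0097 without H-TBA 2, 0.034 without H-TBA 3, 0.026 without L-TBA 2 and 0.064 without L-TBA 3. It was 0.106 without H-TBA 1 and 0.181 without L-TBA 1. Mcm6, a subunit of the replicative helicase, had 9.81, 16.8, 18.1 and 17.2 CPM in H-TBA and 10.9, 8.88 and 11.6 CPM in L-TBA libraries, a log2 difference of 0.57 ± 0.20 (adjusted p = 0.0587). H-TBA 1 lay among the L-TBA libraries, and H-TBA 2, 3 and 4 lay above all 3. Without H-TBA 1 the log2 fold change was 0.73 (adjusted p = 0.00133), and without any other library the adjusted p ran from 0.0825 to 0.189.

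None of the other helicase subunits passed the test. Mcm2 had 5.88, 5.96, 7.24 and 6.47 CPM in H-TBA and 10.9, 6.19 and 4.31 CPM in L-TBA libraries (log2 fold change -0.16 ± 0.26, adjusted p = 0.693), with L-TBA 1 as its highest and L-TBA 3 as its lowest library. With L-TBA 1 left out, its log2 fold change turned to 0.28 (adjusted p = 0.411). Mcm3, Mcm4, Mcm5 and Mcm7 had log2 fold changes of 0.13, 0.35, 0.27 and 0.18, with an adjusted p between 0.268 and 0.751. Of the licensing factors, Cdt1, which brings MCM to origins, and Gmnn, geminin, its inhibitor, had log2 fold changes of -0.07 ± 0.17 and -0.03 ± 0.20. Cdc6, the other loader, was listed at 5 to 12 counts in H-TBA and 3 to 12 counts in L-TBA libraries and was not tested.

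Pcna, the sliding clamp of the fork, had 30.5, 27.3, 33.3 and 34.5 CPM in H-TBA and 31.6, 29.0 and 37.3 CPM in L-TBA libraries (log2 fold change -0.05 ± 0.11, adjusted p = 0.777), and the groups overlapped. Rrm2, the small subunit of ribonucleotide reductase, had 5.14, 4.98, 4.15 and 3.80 CPM in H-TBA and 3.97, 5.03 and 7.41 CPM in L-TBA libraries (log2 fold change -0.27 ± 0.23, adjusted p = 0.425). L-TBA 3 was its highest library, and with it left out the fold change of Rrm2 was -0.0019 (adjusted p = 0.996). Tyms, thymidylate synthase, had 9.81, 9.87, 7.56 and 8.90 CPM in H-TBA and 8.55, 7.45 and 8.41 CPM in L-TBA libraries (log2 fold change 0.15 ± 0.15, adjusted p = 0.504), and its groups overlapped. Rrm1, the large reductase subunit, and Tk1, thymidine kinase, had log2 fold changes of -0.01 ± 0.16 and 0.16 ± 0.19, with an adjusted p of 0.974 and 0.589.

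Of the 25 G2 and mitotic members, 5 rose in H-TBA livers: Ccnb2, Stmn1, Cdc20, Aurkb and Ube2c. These made up 21.7% of the 23 tested, beside 13.1% of all genes. Of the 5, Aurkb reached the filter's minimum in all 4 H-TBA libraries but in only 1 L-TBA library, so L-TBA alone would not have brought it into the test. An unadjusted p under 0.05 was met by 7 of the 23, and by 5604 of the 15249 genes in either direction. At an adjusted p under 0.05 DESeq2 called 3 of the 23 higher and limma-voom 8, beside 1903 and 2346 of all genes. The median log2 fold change of the 23 was 0.49, 22 were above 0 and 1, Mki67, was below it. With 1 library left out, the median of the tested mitotic members ran from 0.339 without H-TBA 2 to 0.615 without L-TBA 3. In 8 of the 23 every H-TBA library lay above every L-TBA library, an order seen in 17.2% of all genes tested. These were the 5 that rose, Ccnb1, Kif20a and Prc1. The number that rose was 8 without H-TBA 1 and 5 without L-TBA 3. It was 1 without H-TBA 2, 1 without H-TBA 3, 2 without H-TBA 4, 1 without L-TBA 1 and 2 without L-TBA 2. Without H-TBA 2, H-TBA 3, H-TBA 4, L-TBA 1 or L-TBA 2, the share that rose was below that of all genes.

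Ccnb2, cyclin B2, a partner of Cdk1 at mitotic entry, had 4.76, 5.18, 5.12 and 5.18 CPM in H-TBA and 2.94, 2.69 and 2.50 CPM in L-TBA libraries. The 4 H-TBA libraries lay close together and well above the 3 L-TBA libraries, and the log2 fold change was 0.90 ± 0.17 (adjusted p = 0.00388). This call held with any 1 library left out, at an adjusted p of 0.00339 to 0.0195. Ccnb1, cyclin B1, had 2.43, 3.03, 2.68 and 2.75 CPM in H-TBA and 2.16, 2.24 and 2.10 CPM in L-TBA libraries, which did not overlap, but its log2 fold change of 0.33 ± 0.21 missed the threshold (adjusted p = 0.293). Cdk1, the kinase of both, had 2.34, 4.59, 6.42 and 5.26 CPM in H-TBA and 2.59, 2.78 and 2.90 CPM in L-TBA libraries, a log2 difference of 0.76 ± 0.30 (adjusted p = 0.0881). H-TBA 1 was the lowest of all 7 libraries for Cdk1 and the other H-TBA libraries were the 3 highest. Without H-TBA 1 the log2 fold change of Cdk1 was 0.98 (adjusted p = 0.00399). Ccna2, cyclin A2, which acts with Cdk2 and Cdk1, had a log2 difference of 0.66 ± 0.31 (adjusted p = 0.144), which was 1.19 without L-TBA 3 (adjusted p = 0.0108), 0.37 without L-TBA 1 (adjusted p = 0.432) and 0.52 without L-TBA 2 (adjusted p = 0.344).

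Cdc20 and Ube2c, which act in the exit from mitosis, rose. Cdc20, the activator of the anaphase-promoting complex, had 5.04, 5.86, 5.20 and 4.77 CPM in H-TBA and 2.33, 3.68 and 3.71 CPM in L-TBA libraries, and was higher in H-TBA by 0.69 ± 0.21 on the log2 scale (adjusted p = 0.0312). Ube2c, the ubiquitin-conjugating enzyme of that complex, had 2.80, 4.20, 3.33 and 2.99 CPM in H-TBA and 1.55, 1.44 and 2.60 CPM in L-TBA libraries, and was higher in H-TBA by 0.84 ± 0.27 on the log2 scale (adjusted p = 0.0428). For both genes H-TBA 2 was the highest library and the groups did not overlap. The Cdc20 call was lost without H-TBA 2, H-TBA 3, H-TBA 4 or L-TBA 1, at an adjusted p of 0.0525 to 0.129. The Ube2c call was lost without H-TBA 2, H-TBA 3, H-TBA 4, L-TBA 1 or L-TBA 2, at an adjusted p of 0.0668 to 0.152.

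Aurkb, Aurora kinase B, which corrects the attachment of chromosomes to the spindle, was near the limit of detection, with 14, 19, 21 and 26 counts in H-TBA and 10, 11 and 9 counts in L-TBA libraries. This made 1.31, 1.86, 1.71 and 2.10 CPM in H-TBA and 0.864, 0.987 and 0.902 CPM in L-TBA libraries, and Aurkb was higher in H-TBA by 0.92 ± 0.29 on the log2 scale (adjusted p = 0.0393). Its call held without H-TBA 1 (adjusted p = 0.0182) and was lost without any other library, at an adjusted p of 0.0665 to 0.123. Stmn1, stathmin, which destabilises microtubules, had 11.3, 16.3, 18.1 and 13.2 CPM in H-TBA and 9.24, 8.26 and 10.8 CPM in L-TBA libraries, and was higher in H-TBA by 0.64 ± 0.17 on the log2 scale (adjusted p = 0.0204). H-TBA 2 and 3 were its highest libraries and H-TBA 1 lay just above L-TBA 3. Its call was lost without H-TBA 2, H-TBA 3, L-TBA 1 or L-TBA 2, at an adjusted p of 0.0543 to 0.0815. Birc5, survivin, which works in one complex with Aurora B, had 3.74, 4.59, 4.64 and 3.48 CPM in H-TBA and 3.71, 3.32 and 3.91 CPM in L-TBA libraries (log2 fold change 0.17 ± 0.19, adjusted p = 0.556), and its groups overlapped.

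The proliferation marker Mki67, whose protein coats mitotic chromosomes, and Top2a, the topoisomerase that untangles them, did not pass the test. Mki67 had 9.43, 14.4, 14.2 and 12.9 CPM in H-TBA and 7.77, 11.5 and 20.1 CPM in L-TBA libraries (log2 fold change -0.03 ± 0.27, adjusted p = 0.944). L-TBA 3 held the highest value of all 7 libraries and L-TBA 1 the lowest, so the L-TBA group spanned the H-TBA group. With L-TBA 3 left out, the log2 fold change of Mki67 was 0.40 (adjusted p = 0.225), without L-TBA 1 it was -0.31 (adjusted p = 0.403), and without H-TBA 1 it was 0.09 (adjusted p = 0.836). Top2a had 3.92, 9.58, 7.32 and 6.72 CPM in H-TBA and 5.01, 5.47 and 9.32 CPM in L-TBA libraries (log2 fold change 0.07 ± 0.29, adjusted p = 0.894), with H-TBA 1 lowest and H-TBA 2 and L-TBA 3 highest. Its log2 fold change was 0.39 without L-TBA 3 (adjusted p = 0.409) and -0.12 without H-TBA 2 (adjusted p = 0.810). It was -0.10 without L-TBA 1 (adjusted p = 0.869) and -0.05 without L-TBA 2 (adjusted p = 0.939).

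Spindle and cytokinesis members lay mostly above 0 without passing. Prc1, which bundles the microtubules between the separating chromosomes, had 2.71, 4.40, 4.31 and 4.13 CPM in H-TBA and 2.33, 2.51 and 2.70 CPM in L-TBA libraries, which did not overlap (log2 fold change 0.63 ± 0.23, adjusted p = 0.0648). Without H-TBA 1 its log2 fold change was 0.77 (adjusted p = 0.0130). The motors Kif20a and Kif23 had log2 fold changes of 0.49 ± 0.23 and 0.86 ± 0.40, with an adjusted p of 0.143 and 0.141, and the motor Kif11 had 0.08 ± 0.31 (adjusted p = 0.880). That of Kif23 was 0.50 without L-TBA 1 and 1.31 without L-TBA 3, and that of Kif20a was 0.31 without H-TBA 2, with none passing. That of Kif11 was -0.13 without H-TBA 2 and 0.29 without H-TBA 1. Tpx2, which turns on Aurora A at the spindle, had 0.44 ± 0.24 (adjusted p = 0.208), and without H-TBA 1 it was 0.59 (adjusted p = 0.0494). Of the kinases, Aurka had 0.55 ± 0.30 and Plk1 0.59 ± 0.35, with an adjusted p of 0.214 and 0.246. That of Plk1 was 0.25 without L-TBA 2 (adjusted p = 0.638). Cenpe, Cenpf and Nusap1, Bub1b of the spindle checkpoint and Foxm1, a transcription factor of G2 genes, had log2 fold changes between 0.03 and 0.25, with an adjusted p between 0.585 and 0.953. Cdc25c, the phosphatase that turns on Cdk1, had 34 counts over 4 H-TBA libraries and 13 over 3 L-TBA libraries, and Bub1, a checkpoint kinase, had 41 and 26, and neither was tested.

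Per length, Ccnd1, Cdk4 and Pcna stood highest. On the scale of CPM per kb of exon (GENCODE gene models), the mean level of Ccnd1 was 33.0 in H-TBA and 18.5 in L-TBA livers, that of Cdk4 was 17.8 and 13.4, and that of Pcna was 13.1 and 13.6. Stmn1 was at 7.66 in H-TBA and 4.91 in L-TBA livers, and Gmnn at 5.14 and 5.21. The other G1 members ranged from 0.413 for Ccne2 to 4.96 for Ccnd3 in H-TBA livers, and from 0.406 to 4.12 for the same genes in L-TBA livers. Ccnb2 was at 3.31 in H-TBA and 1.77 in L-TBA livers, Cdc20 at 2.80 and 1.73, and Mki67 at 1.26 and 1.31. Cdc6 was the lowest member in H-TBA livers, at 0.125, and had 0.115 in L-TBA livers, where Cdc25c was lower still, at 0.0805 beside 0.150 in H-TBA.

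The summed level of each class was compared by library. The 9 G1 members summed to 270.2, 269, 352 and 365 CPM in H-TBA and 238, 206 and 182 CPM in L-TBA libraries. Most of this sum came from Ccnd1, Ccnd2, Ccnd3 and Cdk4, so it restates their calls. The 14 S-phase members summed to 125, 150.5, 147 and 149 CPM in H-TBA and 141, 122 and 138 CPM in L-TBA libraries, which overlapped. The 25 G2 and mitotic members summed to 80.2, 127, 114 and 106 CPM in H-TBA and 68.6, 73.9 and 101 CPM in L-TBA libraries. In this sum H-TBA 1 lay between L-TBA 2 and L-TBA 3, and L-TBA 3 lay near H-TBA 4. In bulk liver, fewer cells of a type and less RNA per cell cannot be told apart.

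**Figure D5:**
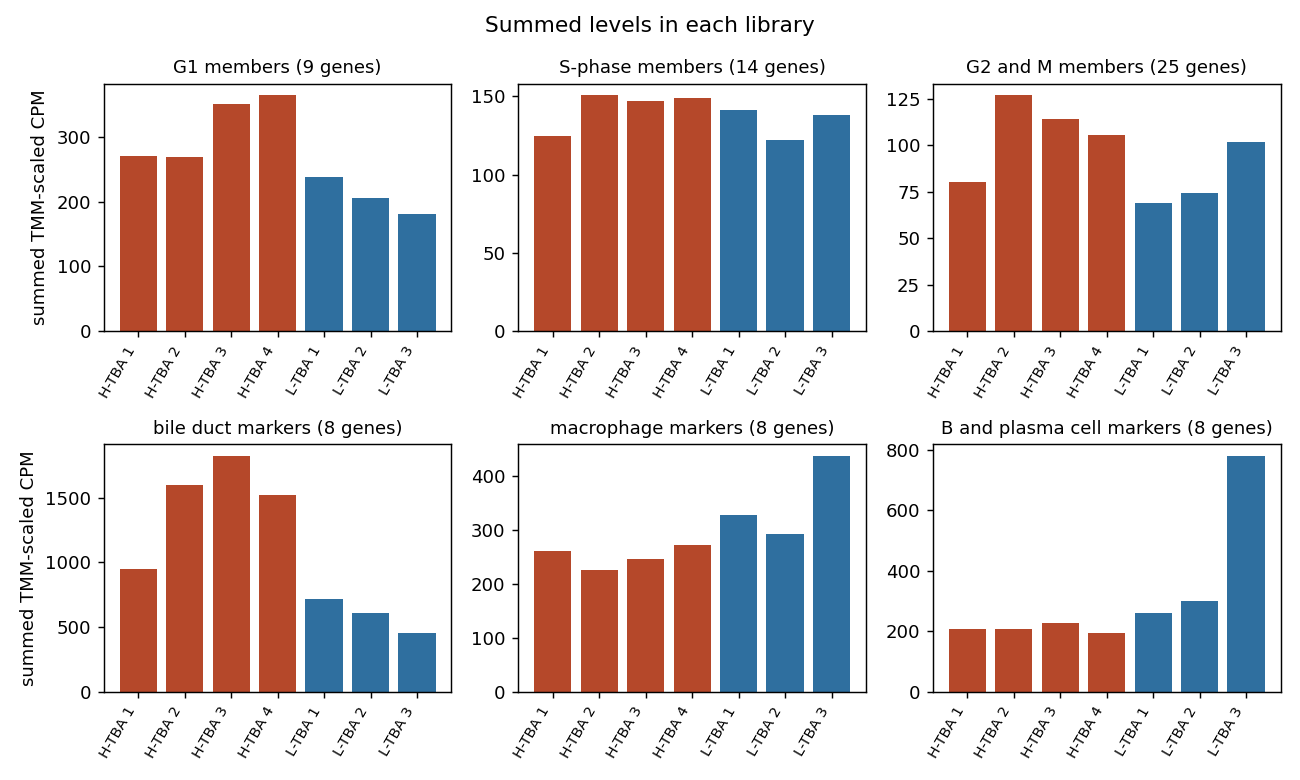
Summed TMM-scaled CPM (y axis, from 0, a scale per panel) of the G1, S-phase and G2 and mitotic members and of bile duct, macrophage and B and plasma cell markers in each library (x axis; H-TBA red, L-TBA blue). H-TBA bars stand above all L-TBA bars for G1 members and bile duct markers, and L-TBA 3 has the tallest bar for B and plasma cell markers at 780 CPM.

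Markers of some other liver cells differed between the groups. All 8 bile duct markers rose, and they summed to 946, 1598, 1820.3 and 1517 CPM in H-TBA and 716, 608 and 455 CPM in L-TBA libraries, with none of the 8 at 0 in any library. Most of this sum came from Spp1, with a mean of 1195 of 1470 CPM in H-TBA and 513 of 593 CPM in L-TBA. H-TBA 1 was the lowest H-TBA library in this sum and in the mitotic sum, while L-TBA 3 was the lowest L-TBA library in this sum and the highest in the mitotic sum. The part of bile duct cells in the G1 and mitotic values was not tested. L-TBA 3, the highest L-TBA library in 19 of 25 mitotic genes, had a B and plasma cell marker sum of 780 CPM, against 261 and 302 CPM in L-TBA 1 and 2 and 194 to 226 CPM in H-TBA libraries. In that sum Xbp1 had a mean of 163 of 209 CPM in H-TBA, and Ighm held 492 of the 780 CPM in L-TBA 3. Of the 7 tested markers of that list 2 fell, Ighm and Xbp1, of which hepatocytes also express Xbp1, and none of the listed genes was at 0. The macrophage marker sum of L-TBA 3 was 436 CPM, against 328 and 293 CPM in L-TBA 1 and 2 and 226 to 271 CPM in H-TBA libraries, and 2 of 8 macrophage markers fell.

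Sums of the remaining marker lists overlapped between the groups for T and NK cells, erythroid cells and stellate cells with fibroblasts, and did not for neutrophils and endothelial cells. T and NK cell markers summed to 10.6 to 19.9 CPM in H-TBA and 12.4 to 14.5 CPM in L-TBA libraries, and neutrophil markers to 6.26 to 8.82 CPM and 11.02 to 11.3 CPM, with 1 of 3 tested neutrophil markers lower and Ly6g at 0 in all 7 libraries. None of 7 tested T and NK cell markers passed the test of edgeR, with 0 at an unadjusted p under 0.05. Erythroid markers summed to 214 to 403 CPM in H-TBA and 353 to 453 CPM in L-TBA libraries, with 0 of 4 tested passing, 2 at an unadjusted p under 0.05, and Slc4a1 at 0 in 1 H-TBA library. Endothelial markers summed to 120.0 to 149.95 CPM in H-TBA and 151 to 192 CPM in L-TBA libraries, and stellate and fibroblast markers to 796 to 913 CPM and 549 to 990.5 CPM. Of 7 endothelial markers 2 fell, and of 8 stellate and fibroblast markers 3 rose and 1 fell. The part of these cells in the values of the cell cycle genes was not tested.

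Some members share exon bases with a gene on the opposite strand in GENCODE, and the strand setting of the counting is not given in the sources used here. Of the Ccnd1 exon bases 23.4% also belong to LTO1, which did not pass the test (log2 fold change -0.06, adjusted p = 0.784). Cdk4 shares 19.7% with Tspan31, whose mean level of 251 CPM in H-TBA and 254 CPM in L-TBA livers was above that of Cdk4, with a log2 fold change of -0.01 (adjusted p = 0.932). Ube2c shares 22.8% with Tnnc2, which had 0 counts in all 7 libraries. Kif20a shares 29.3% with Cdc23, Ccnd3 4.11% with Bysl, which fell (log2 fold change -0.49, adjusted p = 0.0223), and Cdc20 2.84% with Elovl1 (log2 fold change 0.01, adjusted p = 0.941). The pseudogene Ccnb2-ps had 16 counts over the H-TBA and 12 over the L-TBA libraries. How far reads were shared was not tested.

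Further genes of the pathway, listed by role, moved in both directions and mostly did not pass. Of 175 listed genes 173 were in the table, Cdkn2d and Skp1 having no match, and 164 were tested. Of these 13 rose (7.93%) and 5 fell (3.05%), beside 13.1% and 10.7% of all genes, and the median log2 fold change was 0.14, which was 0.054 without L-TBA 2 and 0.066 without H-TBA 3. Scaled by library totals, 36 rose and 2 fell. The number that rose was 17 without H-TBA 1 and 11 without L-TBA 3, but 6 without H-TBA 2 or L-TBA 1, 7 without H-TBA 4 or L-TBA 2 and 8 without H-TBA 3. The number that fell was 4 without H-TBA 1 or H-TBA 3, 3 without H-TBA 2, H-TBA 4 or L-TBA 3, and 2 without L-TBA 1 or L-TBA 2.

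Among the CDK inhibitors, 2 of 6 tested genes rose (33.3%, beside 13.1% of all genes), and of these Cdkn2b was tested only through H-TBA. Cdkn1b, which encodes p27 and holds Cdk2 in check, had 42.8, 48.7, 48.2 and 42.6 CPM in H-TBA and 32.0, 33.9 and 34.6 CPM in L-TBA libraries, which did not overlap (log2 fold change 0.44 ± 0.08, adjusted p = 0.00343). Its call held in every alternative run. Cdkn2b, which encodes the Cdk4 and Cdk6 inhibitor p15, had 7, 16, 12 and 13 counts in H-TBA and 6, 2 and 0 counts in L-TBA libraries (log2 fold change 2.07 ± 0.62, adjusted p = 0.0335). Its call was lost without L-TBA 2 (adjusted p = 0.110) and without L-TBA 3 (adjusted p = 0.0893), and the gene did not pass the filter without H-TBA 2, H-TBA 3 or H-TBA 4. Cdkn2b lay below the filter minimum in all 3 L-TBA libraries and entered the test only through H-TBA, so it had to be higher there. Cdkn1a, the p53 target p21, had 29.1, 23.7, 39.3 and 43.0 CPM in H-TBA and 36.5, 61.2 and 28.2 CPM in L-TBA libraries (log2 fold change -0.31 ± 0.25, adjusted p = 0.405), and L-TBA 2 was its highest library. With L-TBA 2 left out, its log2 fold change was 0.06 (adjusted p = 0.884).

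Of 17 pocket proteins, E2F partners and MuvB subunits, Tfdp2 rose and E2f8 fell (5.88% each, beside 13.1% and 10.7% of all genes). Tfdp2, a DNA-binding partner of some E2Fs, had 20.3, 27.8, 21.6 and 25 CPM in H-TBA and 13.6, 16.3 and 16.8 CPM in L-TBA libraries (log2 fold change 0.60 ± 0.13, adjusted p = 0.00675). E2f8, an E2F that represses, had 1.77, 1.76, 0.651 and 1.13 CPM in H-TBA and 3.28, 3.86 and 2.50 CPM in L-TBA libraries, all L-TBA libraries being higher (log2 fold change -1.30 ± 0.32, adjusted p = 0.0141). With L-TBA 2 left out, the E2f8 call was lost (adjusted p = 0.0626). E2f7, its close relative, had 3 to 16 counts in H-TBA and 8 to 13 in L-TBA libraries (log2 fold change -0.32 ± 0.46, adjusted p = 0.666).

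Replication companions split. Of 25 polymerase and fork genes, Pold3, a subunit of DNA polymerase delta, rose (16.7, 19.8, 22.6 and 18.04 CPM in H-TBA and 12.5, 13.9 and 15.4 CPM in L-TBA libraries; log2 fold change 0.47 ± 0.13, adjusted p = 0.0209). Lig1, the ligase that joins Okazaki fragments, also rose (6.73, 7.43, 10.49 and 11.3 CPM in H-TBA and 4.32, 6.37 and 6.11 CPM in L-TBA libraries; log2 fold change 0.69 ± 0.22, adjusted p = 0.0426). Fen1, the nuclease that trims those fragments, fell (3.55, 4.01, 4.72 and 4.13 CPM in H-TBA and 7.43, 7.18 and 5.51 CPM in L-TBA libraries; log2 fold change -0.71 ± 0.18, adjusted p = 0.0142). Pola2 of the primase complex fell as well (log2 fold change -0.46 ± 0.15, adjusted p = 0.0492), and is named after its value was seen. The calls of Pold3, Lig1 and Fen1 were each lost in some fits with a library left out. For Pold3 these were without H-TBA 2, H-TBA 3, L-TBA 1 or L-TBA 2 (adjusted p of 0.0512 to 0.0936). For Lig1 they were without H-TBA 3, H-TBA 4, L-TBA 1, L-TBA 2 or L-TBA 3 (0.0612 to 0.162), and for Fen1 without L-TBA 1 or L-TBA 2 (0.0649 and 0.0541). None of 14 tested origin and helicase loading genes changed, with 0 at an unadjusted p under 0.05 by edgeR and 0 by DESeq2 and by limma-voom.

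Mitotic companions gave few calls. Of 17 spindle and cytokinesis genes, Ckap2, a spindle protein, and Iqgap3, a cytoskeletal scaffold, rose (11.8%, beside 13.1% of all genes). Ckap2 had 2.34, 2.83, 3.17 and 3.40 CPM in H-TBA and 1.21, 1.71 and 1.90 CPM in L-TBA libraries (log2 fold change 0.88 ± 0.25, adjusted p = 0.0276), and Iqgap3 had 1.77, 2.35, 2.28 and 3.16 CPM in H-TBA and 1.04, 1.62 and 1.002 CPM in L-TBA libraries (log2 fold change 0.97 ± 0.30, adjusted p = 0.0371). Each call was lost in 5 of the 7 fits with a library left out, the Ckap2 call being kept without H-TBA 1 or L-TBA 3 and the Iqgap3 call without H-TBA 1 or L-TBA 2 (adjusted p when lost, 0.0507 to 0.119 and 0.0604 to 0.132). Of 16 tested kinetochore and checkpoint genes 0 changed, with 1 at an unadjusted p under 0.05 and 0 by DESeq2 and by limma-voom. Of 16 condensin and cohesin genes 0 changed, with 2 at an unadjusted p under 0.05, 0 by DESeq2 and 1 by limma-voom.

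Of 19 ubiquitin ligase genes, Ube2s and Fzr1 rose, a share below the 13.1% of all genes. Ube2s, which extends ubiquitin chains on the anaphase-promoting complex after Ube2c, had 28.5, 28.2, 34.6 and 31.2 CPM in H-TBA and 23.4, 22.8 and 21.9 CPM in L-TBA libraries (log2 fold change 0.43 ± 0.10, adjusted p = 0.00778), which did not overlap, and its call held with any 1 library left out. Fzr1, or Cdh1, the activator of that complex after Cdc20, had 16.9, 21.7, 24.2 and 22.8 CPM in H-TBA and 14.9, 14.7 and 18.1 CPM in L-TBA libraries (log2 fold change 0.43 ± 0.14, adjusted p = 0.0392), which overlapped. Cdc25b, a phosphatase that activates Cdk1, was the only riser of 15 tested mitotic entry genes (6.67%, beside 13.1% of all genes). It had 3.92, 4.69, 6.34 and 6.23 CPM in H-TBA and 2.94, 1.97 and 4.11 CPM in L-TBA libraries (log2 fold change 0.83 ± 0.27, adjusted p = 0.0426). The calls of Fzr1 and Cdc25b were lost without H-TBA 2, H-TBA 3, H-TBA 4, L-TBA 1 or L-TBA 2, at an adjusted p of 0.0795 to 0.134 for Fzr1 and 0.0628 to 0.154 for Cdc25b.

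Checkpoint and arrest genes gave 3 rises and 2 falls among 19 (26.3% changed in either direction, beside 23.9% of all genes). Gadd45b, a stress sensor that can bind Cdk1 complexes, had 13.7, 12.1, 16.3 and 20.3 CPM in H-TBA and 5.18, 7.27 and 8.11 CPM in L-TBA libraries (log2 fold change 1.199 ± 0.21, adjusted p = 0.00201). Brca1, which acts in repair by recombination, had 3.74, 4.40, 4.64 and 3.64 CPM in H-TBA and 2.07, 2.33 and 2.30 CPM in L-TBA libraries (log2 fold change 0.87 ± 0.20, adjusted p = 0.00911). Ccng1, cyclin G1, a p53 target, had 45.02, 47.1, 43.7 and 42.4 CPM in H-TBA and 62.2, 58.2 and 58.1 CPM in L-TBA libraries, every H-TBA library being lower (log2 fold change -0.42 ± 0.07, adjusted p = 0.00240). These 3 calls held in every alternative run. The other 2, named after their values were seen, were Ccng2, cyclin G2, which rose (log2 fold change 0.35 ± 0.11, adjusted p = 0.0468), and Mdm2, the ligase that degrades p53, which fell (log2 fold change -0.25 ± 0.08, adjusted p = 0.0414).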

How the data were processed

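RNA of whole liver was sequenced in 4 H-TBA and 3 L-TBA libraries. The authors deposited counts per gene for each library as a table of raw counts. Per the submitters' processing notes, the genome build was mm9 and the tools named were CASAVA, TopHat2 2.0.11 and DESeq2 1.18.1. How reads were counted, with which strand setting and against which annotation is not given in the sources used here. The 48 members and the lists of further genes and markers were chosen with earlier results of these data known, and the same holds for the tests.

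Columns were matched to libraries by their names. Gene symbols came from GENCODE M21, which matched 32897 of 37620 IDs. Genes were kept by filterByExpr (minimum count 10, total 15), scaled by TMM and tested in edgeR 4.0.16 (R 4.3.3) with the quasi-likelihood test of H-TBA against L-TBA; p-values were adjusted by Benjamini-Hochberg over 15249 genes, with a threshold of 0.05. SE was the log2 fold change over the root of F. Levels are TMM-scaled CPM computed from the counts. Every member past the threshold was named with its values, as were 14 members whatever their result, up to 3 called genes with the smallest adjusted p from each list of further genes, and Cdkn1a, Cdkn1b, E2f7 and E2f8. Exon lengths and overlaps came from GENCODE M21 and promoter windows from RefSeq, both on GRCm38.p6, and none of their coordinates was set against mm9. The code was tested on simulated data. Alternatives were no filter, a stricter filter, library totals or DESeq2 size factors as scaling, DESeq2 1.42.0, limma-voom 3.58.1 with quality weights, an adjusted p threshold of 0.01, each library left out and a replicate block. Libraries held 9996990 to 12152613 counts, and no pair within a group agreed within sampling noise.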

Additional observations from a re-analysis of the deposited data

Results flagged for a closer look

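Within the H-TBA group, Dixon's criterion, which sets the gap of 1 library from the other 3 against the range, flagged 6 of 78 groups examined. Chance meets this criterion in about 1 of 20 groups. Where the libraries lie close together, as for Ccnb2, the flagged gap is small. The groups are not separate, since the S-phase sum includes Mcm6. Mcm6 was at 9.81 CPM in H-TBA 1, against 16.8 to 18.1 CPM in the other H-TBA libraries. Prc1 was at 2.71 CPM in H-TBA 1, against 4.13 to 4.40 CPM in the others, and Ccnb2 at 4.76 CPM, against 5.12 to 5.18 CPM. The S-phase members summed to 125 CPM in H-TBA 1, against 147 to 151 CPM in the others. The endothelial markers summed to 120 CPM in H-TBA 1, against 146 to 150 CPM. Cdc25c, at 3 to 14 counts a library, was at 1.13 CPM in H-TBA 4, against 0.569 to 0.654 CPM in the other H-TBA libraries. In 5 of these 6 cases the library was H-TBA 1, and the cause was not tested.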

How the results depend on the processing

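The gene and count results were recomputed under 15 alternatives. With any 1 library left out, members that rose numbered 3 to 13 (9 with all libraries), G1 members 2 to 4 (4), S-phase members 0 to 1 (0) and mitotic members 1 to 8 (5). Further genes that rose numbered 6 to 17 (13) and those that fell 2 to 4 (5). Over all genes, 1470 to 2429 rose, against 2003, and 1035 to 2123 fell, against 1635. A fit with the replicate number as a block gave 3 members higher, 1 in G1 and 2 mitotic, 5 further genes higher and 2 lower, and 1166 genes higher and 754 lower overall. Between libraries with the same number, deviations from the group mean had correlations of -0.103, -0.0589 and -0.0627 for numbers 1 to 3. What the numbers stand for is not given in the labels, and a shared batch was not tested. An adjusted p threshold of 0.01 left 2 members higher, 1 in G1 and 1 mitotic, 5 further genes higher and 1 lower, and 1126 genes higher and 749 lower overall. Library totals gave 36 further genes higher and 2 lower, with 3117 genes higher and 832 lower overall. Mitotic members that rose were 3 by DESeq2 and 8 by limma-voom. The S-phase count was 1 with no filter, library totals, DESeq2 or limma-voom. Further genes that rose were 20 by limma-voom, and those that fell were 3 with no filter and 3 by DESeq2. In no alternative did a member fall. The cause of these changes was not tested.

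Of the gene results under an alternative, 717 kept direction and side of the threshold, 83 kept direction but no longer passed, 13 kept direction and came to pass, and 51 changed direction, all of these for genes that did not pass. Log2 fold changes crossed 0 with library totals for Ccne1 (0.11), Cdt1 (0.089), Gmnn (0.13), Pcna (0.11), Rrm1 (0.15) and Mki67 (0.14), with limma-voom for Ccne2 (-0.17), Rrm1 (0.018), Mki67 (0.18) and Cenpe (-0.0011), and with the replicate block for Ccne1 (0.0018), Ccne2 (-0.061), Gmnn (0.010), Mcm3 (-0.049), Mki67 (0.012) and Foxm1 (-0.052). With 1 library left out, the log2 fold change ran from -0.26 to 0.23 for Ccne1, -0.41 to 0.25 for Ccne2, -0.0066 to 0.084 for E2f1, -0.17 to 0.021 for Cdt1, -0.16 to 0.18 for Gmnn and -0.42 to 0.28 for Mcm2. It ran from -0.021 to 0.31 for Mcm3, -0.13 to 0.049 for Pcna, -0.13 to 0.085 for Rrm1, -0.025 to 0.29 for Tk1, -0.31 to 0.40 for Mki67 and -0.12 to 0.39 for Top2a. It ran from -0.022 to 0.32 for Bub1b, -0.13 to 0.29 for Kif11, -0.024 to 0.13 for Cenpe, -0.045 to 0.46 for Nusap1, -0.10 to 0.19 for Foxm1 and -0.53 to 0.060 for Cdkn1a. Depth limits the low members: Aurkb had 9 to 26 counts a library, and its adjusted p was 0.0654 with no filter and 0.107 by DESeq2. The Ube2c call was also lost by DESeq2. The calls of Ccnd1, Ccnd3, Cdk4, Cdc20, Aurkb and Ube2c were lost under the replicate block at an adjusted p of 0.0702, 0.116, 0.152, 0.0754, 0.163 and 0.105. Under this block the median was 0.117 for G1, 0.0105 for S-phase and 0.369 for mitotic members.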
